A study of Homo sapiens with 27 samples.

Results

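The nuclear-encoded subunit genes of the respiratory chain and ATP synthase were followed in 2 human cancer cell lines treated with Compound Kushen Injection (CKI), alone or with a chemotherapy drug. Members were the rows of the count table whose gene identifier belonged to a protein-coding NDUFA, NDUFB, NDUFC, NDUFS or NDUFV subunit, SDHA to SDHD, a UQCR gene or CYC1, a COX4I to COX8 subunit, or an ATP5F1, ATP5MC, ATP5ME, ATP5MF, ATP5MG or ATP5P gene, with assembly factors, readthrough genes and pseudogenes left out. Of 24566 rows, 84 were members: 36 of complex I, 4 of complex II, 10 of complex III, 18 of complex IV and 16 of complex V. NDUFA4 was counted under complex IV. The rule used no measured value.

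RNA was sequenced from 27 libraries in 9 groups of 3, all taken at 48 h. A431 is a human epidermoid carcinoma line and MDA-MB-231 a human breast adenocarcinoma line. A431 cells were left untreated, given a vehicle control, or given doxorubicin, CKI (1.0 mg/ml) or both agents together. MDA-MB-231 cells were left untreated, or given 5-fluorouracil (5-FU, 10 ug/ml), CKI (1.0 mg/ml) or both agents together. CKI is an injectable extract of a pair of medicinal plants, doxorubicin is an anthracycline that binds DNA and topoisomerase II, and 5-FU is a pyrimidine analogue. The labels give no composition for the vehicle and no single dose for doxorubicin. They do not say whether the libraries of a group came from separate cultures, so p-values measure the spread between these libraries, which may be technical.

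The respiratory chain sits in the inner mitochondrial membrane. Complex I (NDUF genes) takes electrons from NADH and complex II (SDH genes) takes them from succinate. Complex III (UQCR genes, CYC1) passes them to cytochrome c, complex IV (COX genes) passes them to oxygen, and complex V (ATP5 genes) uses the proton gradient so formed to make ATP. A few core subunits are encoded by mitochondrial DNA. None of the 13 genes of that kind was a row of the table, so only the nuclear share of each complex is described.

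Library totals ran from 17757206 to 21756536 counts in A431 and from 19871048 to 22809339 in MDA-MB-231. Levels are given as CPM, counts scaled to library size with TMM factors over all 27 libraries, and 3 counts correspond to 0.133 to 0.186 CPM on that scale. The summed CPM of 7 epithelial markers fixed for A431 was 7155 to 10429 in A431 and 557 to 782 in MDA-MB-231. The summed CPM of 5 markers fixed for MDA-MB-231 was 249 to 1063 in A431 and 1722 to 3552 in MDA-MB-231. Of these, SPARC was low in both lines, at 3.66 CPM or less. CAV1 did not separate the lines, at 92.0 to 947 CPM in A431 and 244 to 818 CPM in MDA-MB-231. Among the A431 markers DSP overlapped, at 205 to 360 CPM in A431 and 146 to 263 CPM in MDA-MB-231. The first untreated MDA-MB-231 library stood apart. Among 75 members with at least 10 counts in every library, 50 differed there by over 0.3 on the log2 scale from the mean of the other 2 untreated libraries, and the difference ran against transcript GC content (Spearman's rho -0.61 across these members, a description). In the 8 other groups at most 12 members did so in any library, with the highest number in vehicle control replicate 1. Counts of called members that rest on untreated MDA-MB-231 are therefore given with and without that library. Shares over all genes are given only for the main fits, which hold all libraries. Counts without a library or under another setting have no such share beside them.

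In untreated cells the members summed to 13521 ± 393 CPM in A431 and 11033 ± 1842 CPM in MDA-MB-231 (mean ± SD, n = 3). The library that stood apart read 13153 CPM, within the A431 range of 13067 to 13750 CPM, and the other MDA-MB-231 libraries read 10121 and 9826 CPM, below it. Complex I gave 3831 ± 101 CPM in untreated A431 and complex V gave 3747 ± 134 CPM. Complex II, with only 4 genes, gave 524 ± 11.8 CPM. In A431 the summed level was lower than untreated in each of the 3 drug groups. It was 8636 ± 101 CPM after CKI, 9322 ± 172 CPM after doxorubicin and 9181 ± 238 CPM after both, against 12105 ± 450 CPM in vehicle control. With library size alone the means were 7914, 10506 and 10288 CPM, against 12243 CPM untreated. Libraries given doxorubicin (10334 to 10618 CPM) or both agents (9959 to 10694 CPM) then overlapped vehicle control (10588 to 11565 CPM). These are descriptions with no test. In MDA-MB-231 the means of the 4 groups lay between 10329 CPM after 5-FU and 11204 CPM after CKI plus 5-FU, but without the library that stood apart the untreated mean was 9973 CPM, the lowest of the 4. In a bulk sample fewer cells and less RNA per cell cannot be told apart, and CPM shows only shares of each library.

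**Figure D1:**
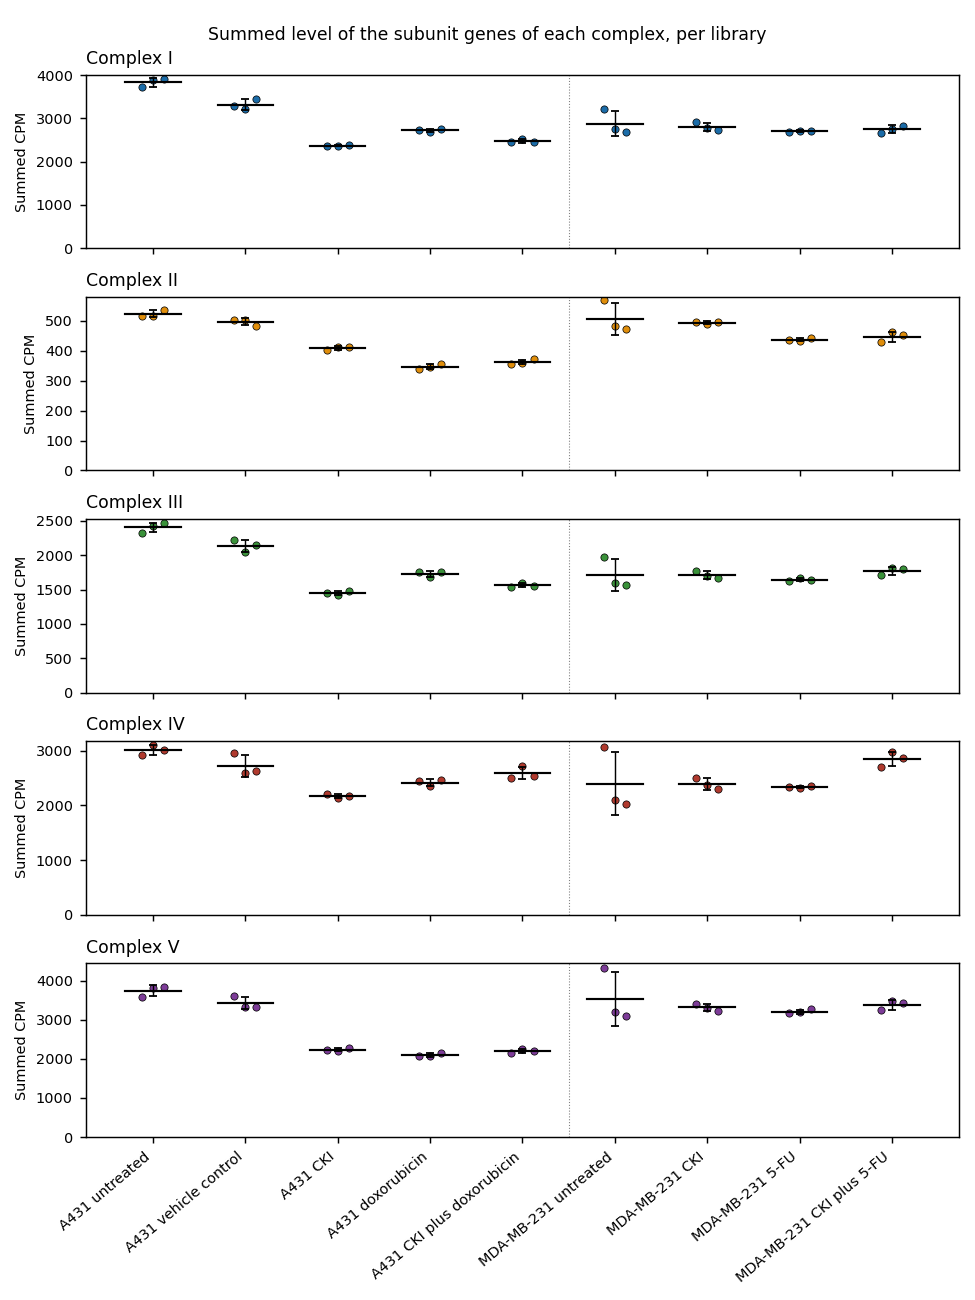
Summed CPM (y axis, starting at 0) of the subunit genes of complexes I to V in each of 27 libraries, by group (x axis). Points are libraries, the wide line is the group mean and the bar is 1 SD (n = 3). On this TMM scale the A431 CKI and doxorubicin libraries lie below every untreated A431 library in all 5 panels. The first untreated MDA-MB-231 library lies above the other 2. With library size alone, complex IV after doxorubicin reads 2662.5 to 2757.7 CPM, which overlaps untreated A431 at 2677.9 to 2836.8 CPM. Complex IV after CKI plus doxorubicin then reads 2775.4 to 3072.3 CPM.

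Untreated A431 and untreated MDA-MB-231 were compared first, to show the starting level of each gene. Of 79 members tested, 39 were higher and 13 lower in A431, and 27 did not pass the test (edgeR quasi-likelihood test, adjusted p under 0.05). Over all 14848 genes tested, 41.9% were called higher and 36.7% lower, and the median log2 fold change was 0.29 over the members and 0.094 over all genes. Beyond a log2 fold change of 1 there were 9 members higher and 2 lower, against 42.9% of all genes in either direction. Without the first untreated MDA-MB-231 library 53 members were higher and 13 lower, scaling by library size alone gave 33 and 20, and offsets for GC content and transcript length gave 37 and 24.

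NDUFB9, an accessory subunit of the complex I membrane arm, showed the largest difference among members expressed in both lines. Its libraries read 216, 232 and 238.5 CPM in untreated A431 and 33.7, 31.7 and 31.9 CPM in untreated MDA-MB-231. The groups did not overlap (log2 fold change 2.87 ± 0.076 (SE), adjusted p = 8.64e-13). COX4I1, a regulatory subunit of complex IV present in most tissues, stood at 524, 549 and 561.5 CPM in A431 and at 261, 235.5 and 223 CPM in MDA-MB-231, again without overlap (log2 fold change 1.23 ± 0.075 (SE), adjusted p = 3.9e-09). UQCRC2, a core protein of complex III, was also higher in A431, at 222, 231 and 239 CPM against 127, 92.5 and 88.4 CPM (log2 fold change 1.22 ± 0.12 (SE), adjusted p = 4.44e-07). ATP5F1D, the delta subunit in the central stalk of ATP synthase, was higher in A431 as well (log2 fold change 1.54 ± 0.15 (SE), adjusted p = 6.28e-07).

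Fewer members were higher in MDA-MB-231. ATP5MG, the g subunit of ATP synthase, had 543, 362 and 344 CPM there and 211, 217 and 213 CPM in A431 (log2 fold change -0.91 ± 0.14 (SE), adjusted p = 4.15e-05). NDUFB6, NDUFS4 and NDUFC2, all accessory subunits of complex I, had log2 fold changes of -0.78, -0.74 and -1.03, with adjusted p of 5.51e-06, 0.000162 and 0.000203. For each of these 4 genes the first untreated MDA-MB-231 library was the highest of the 3.

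Several complex IV subunits exist as a common and a tissue-restricted paralogue. COX4I2, COX6A2, COX7A1 and COX8C, the restricted forms of COX4I1, COX6A1, COX7A2 and COX8A, never exceeded 15 counts in any library and did not pass the filter on low counts in any fit, and neither did ATP5MGL, a gene related to ATP5MG. Their common forms were measured throughout: COX6A1 had 129.5, 146 and 146 CPM in untreated A431, COX7A2 had 263.5, 278 and 268 CPM and COX8A had 208, 221 and 233 CPM. The remaining 2 pairs split by cell line. COX6B2, a form best known from testis (chr19:55860674-55866087, GRCh37, minus strand), had 19.9, 17.2 and 13.7 CPM in untreated A431 and 0.0522, 0.230 and 0.147 CPM in untreated MDA-MB-231, the latter from 1, 5 and 3 counts. The ratio of pooled counts was 116 (exact 95% interval 60.6 to 253, for counting error only). COX7B2, likewise best known from testis (chr4:46736844-46911262, GRCh37, minus strand), had 21.9, 13.7 and 13.97 CPM in untreated MDA-MB-231 and no count in any untreated A431 library. It was at least 89.0-fold higher in MDA-MB-231, set against a floor of 3 counts per A431 library, and at least 74.6-fold without the first MDA-MB-231 library.

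Per kilobase of transcript, COX6B2 made up 1.92% ± 0.408 of the COX6B1 and COX6B2 total in untreated A431 and 19.9% ± 1.26 after CKI (mean ± SD, n = 3). The libraries ran from 1.51% to 2.33% and from 18.5% to 20.8%, so the groups did not overlap. After CKI plus doxorubicin it was 5.48% ± 0.117 and after doxorubicin 1.80% ± 0.304. COX7B2 made up 32.5% ± 4.20 of the COX7B and COX7B2 total in untreated MDA-MB-231 (34.9% without the first library), 30.0% ± 1.82 after CKI, 21.7% ± 1.07 after 5-FU and 21.0% ± 0.719 after both. These shares depend on the transcript lengths taken, 1566 and 488 bases for COX6B2 and COX6B1 and 556 and 2444 bases for COX7B2 and COX7B.

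**Figure D2:**
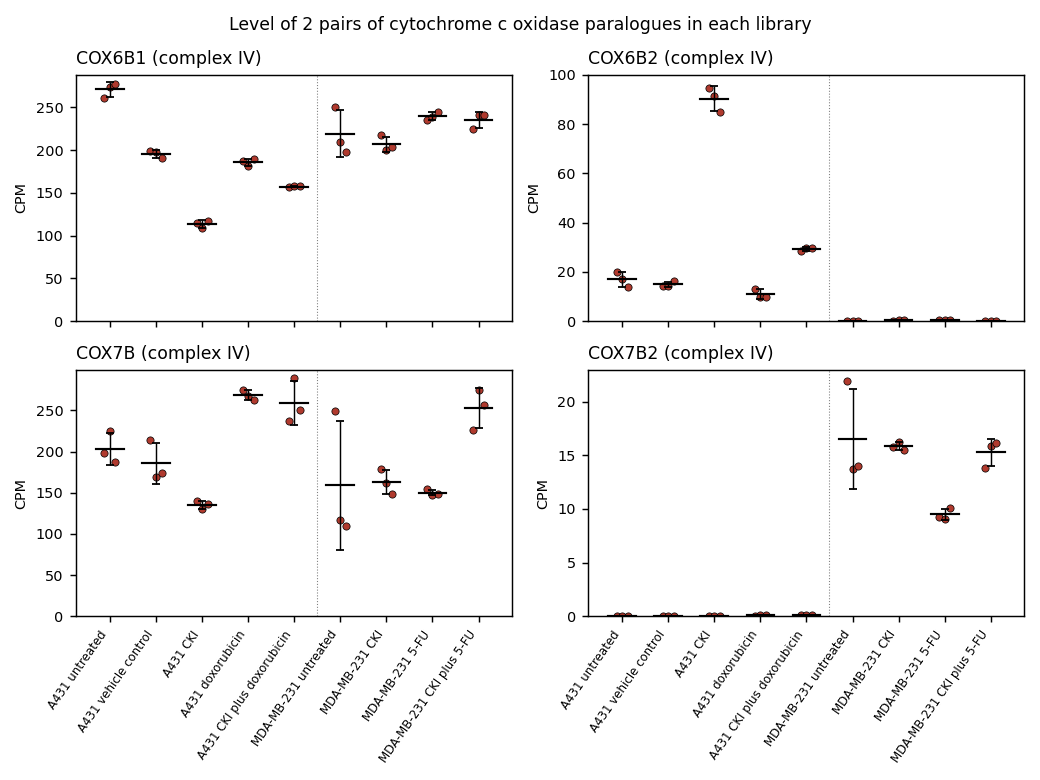
CPM (y axes, starting at 0) of COX6B1, COX6B2, COX7B and COX7B2 in each library by group (x axis), with the group mean and 1 SD (n = 3). COX6B2 lies between 84.98 and 94.8 CPM in the A431 CKI libraries and at 0.381 CPM or less in all MDA-MB-231 libraries, while COX7B2 lies between 9.10 and 21.9 CPM in MDA-MB-231 and at 0.143 CPM or less in A431.

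Nearly all members fell in A431 cells treated with CKI compared to untreated. Of 78 members tested, 73 fell, 2 rose and 3 did not pass the test. Over all 15881 genes tested, 33.7% were called lower and 33.3% higher. The median log2 fold change was -0.74 over the members and 0.0028 over all genes, while single members ran from -1.97 to 2.32. The fold was usually moderate: 20 members fell and 1 rose by over 1 on the log2 scale, against 22.4% of all genes in either direction. Corrected for GC content and transcript length, 63 fell and 5 rose, of which 8 passed a log2 change of 1, and library size alone left 13 beyond it. Members were short, with a median transcript of 760.5 bases against 3146 bases over all genes tested.

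Members of all 5 complexes fell. In complex I 33 of 36 members fell (median -0.75), in complex II 4 of 4 (-0.44), in complex III 10 of 10 (-0.76), in complex IV 11 of 13 tested (-0.53) and in complex V 15 of 15 tested (-0.85). The summed level was 61.7% of untreated for complex I, 78.1% for complex II, 60.3% for complex III, 72.1% for complex IV and 59.8% for complex V.

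**Figure D3:**
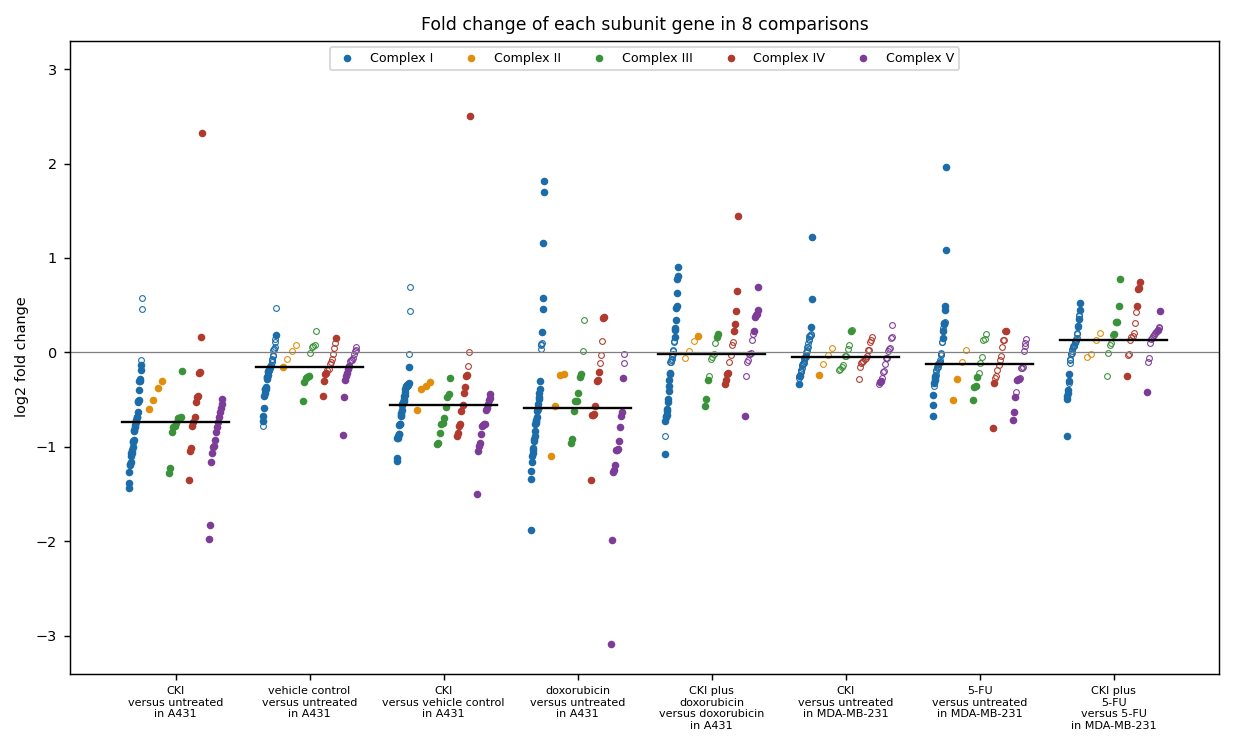
log2 fold change (y axis) of each member tested in 8 comparisons (x axis), coloured by complex. Filled points have adjusted p under 0.05 and open points do not, and the black line is the median over members. The median is -0.74 for CKI in A431, -0.59 for doxorubicin in A431 and -0.05 for CKI in MDA-MB-231.

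Both of the largest falls were in ATP synthase. ATP5MC1 (chr17:46970127-46973233, GRCh37, plus strand) encodes subunit c, which forms the rotating ring of the enzyme. It read 180.5, 181 and 189 CPM in untreated libraries and 47.2, 50.4 and 52.4 CPM after CKI, so every treated library was far below every untreated one (log2 fold change -1.97 ± 0.060 (SE), adjusted p = 5.82e-18). ATP5MC2 and ATP5MC3 encode the same mature c subunit. ATP5MC2 went from 109, 128.5 and 119.7 CPM to 74.4, 71.1 and 74.3 CPM (log2 fold change -0.80 ± 0.077 (SE), adjusted p = 3.21e-09). ATP5MC3 went from 244, 261 and 264 CPM to 140.5, 146 and 144 CPM (log2 fold change -0.93 ± 0.054 (SE), adjusted p = 4.21e-13). All 3 fell without overlap, ATP5MC1 by the most.

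ATP5F1D (chr19:1241745-1244824, GRCh37, plus strand) read 212, 209 and 227 CPM in untreated cells and 60.5, 65.7 and 68.0 CPM after CKI (log2 fold change -1.83 ± 0.10 (SE), adjusted p = 1.25e-13). ATP5F1A and ATP5F1B changed less. ATP5F1A read 462, 476 and 499.7 CPM and then 358, 358 and 375 CPM (log2 fold change -0.49 ± 0.052 (SE), adjusted p = 1.32e-08). ATP5F1B read 713, 738 and 797 CPM and then 475, 477 and 487 CPM (log2 fold change -0.74 ± 0.060 (SE), adjusted p = 1.74e-10). ATP5F1D thus had a mean of 216 CPM in untreated cells and 64.8 CPM after CKI, while ATP5F1B had 749 CPM and 480 CPM.

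In complex I the matrix-arm subunit NDUFA9 read 24.6, 32.5 and 28.2 CPM and then 11.3, 9.63 and 12.8 CPM (log2 fold change -1.44 ± 0.11 (SE), adjusted p = 6.34e-11). NDUFS3, a core subunit of the same arm, read 96.6, 99.0 and 101 CPM and then 40.4, 40.5 and 40.3 CPM, without overlap (log2 fold change -1.38 ± 0.059 (SE), adjusted p = 1.92e-15). NDUFV1, which binds NADH, also fell (log2 fold change -1.10 ± 0.056 (SE), adjusted p = 4.54e-14), as did NDUFA1, a small membrane-arm subunit (log2 fold change -0.63 ± 0.075 (SE), adjusted p = 1.01e-07). NDUFS1, the largest core subunit, fell only slightly, from 98.1, 102 and 107 CPM to 95.2, 96.2 and 97.8 CPM (log2 fold change -0.18 ± 0.067 (SE), adjusted p = 0.0205). It lost its call under 4 of the alternative settings.

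In complex III, CYC1 (cytochrome c1) had a mean of 606 ± 42.5 CPM in untreated cells and 267 ± 10.3 CPM after CKI (mean ± SD, n = 3, log2 fold change -1.27 ± 0.088 (SE), adjusted p = 9.7e-12). UQCRC1, a core protein, and UQCRFS1, the Rieske iron-sulphur protein, had log2 fold changes of -0.79 and -0.78, with adjusted p of 1.87e-11 and 3.75e-10. The complex II subunits SDHA, which oxidises succinate, and SDHB, which carries its iron-sulphur clusters, had smaller log2 fold changes of -0.51 and -0.38, with adjusted p of 1.12e-08 and 2.64e-06.

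In complex IV, COX6B1 read 261, 274 and 278 CPM and then 115, 109 and 117 CPM (log2 fold change -1.35 ± 0.053 (SE), adjusted p = 5.69e-16). COX4I1 read 524, 549 and 561.5 CPM and then 346, 345 and 354 CPM (log2 fold change -0.74 ± 0.051 (SE), adjusted p = 9.04e-12). COX5A, COX6A1, COX7B and COX8A fell too, with log2 fold changes of -0.77, -0.46, -0.68 and -1.01 and adjusted p of 2.6e-09, 2.96e-05, 2.2e-07 and 3.07e-12. COX7A2 had a log2 fold change of -0.21 (adjusted p = 0.00707) that turned to 0.11 once GC content and length were corrected for.

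The 2 members that rose were both in complex IV. COX6B2, the paralogue of COX6B1, read 19.9, 17.2 and 13.7 CPM in untreated libraries and 94.8, 91.4 and 84.98 CPM after CKI (log2 fold change 2.32 ± 0.10 (SE), adjusted p = 4.14e-15). All 3 treated libraries were far above all 3 untreated ones. The libraries do not keep strand, and 29.1% of the exon bases of COX6B2 lie under exons of another annotated gene, so reads from the 2 cannot be told apart there. COX7A2L, which takes part in joining complexes III and IV, read 80.2, 86.5 and 89.0 CPM and then 99.9, 103 and 102 CPM (log2 fold change 0.16 ± 0.058 (SE), adjusted p = 0.0174), and it lost its call under 3 alternative settings. The 3 members that did not pass the test, NDUFA7, NDUFA13 and NDUFV2, had few reads, with at most 31, 81 and 136 counts in any library of the series and 32.5%, 21.0% and 28.4% of their exon bases shared with other genes.

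**Figure D4:**
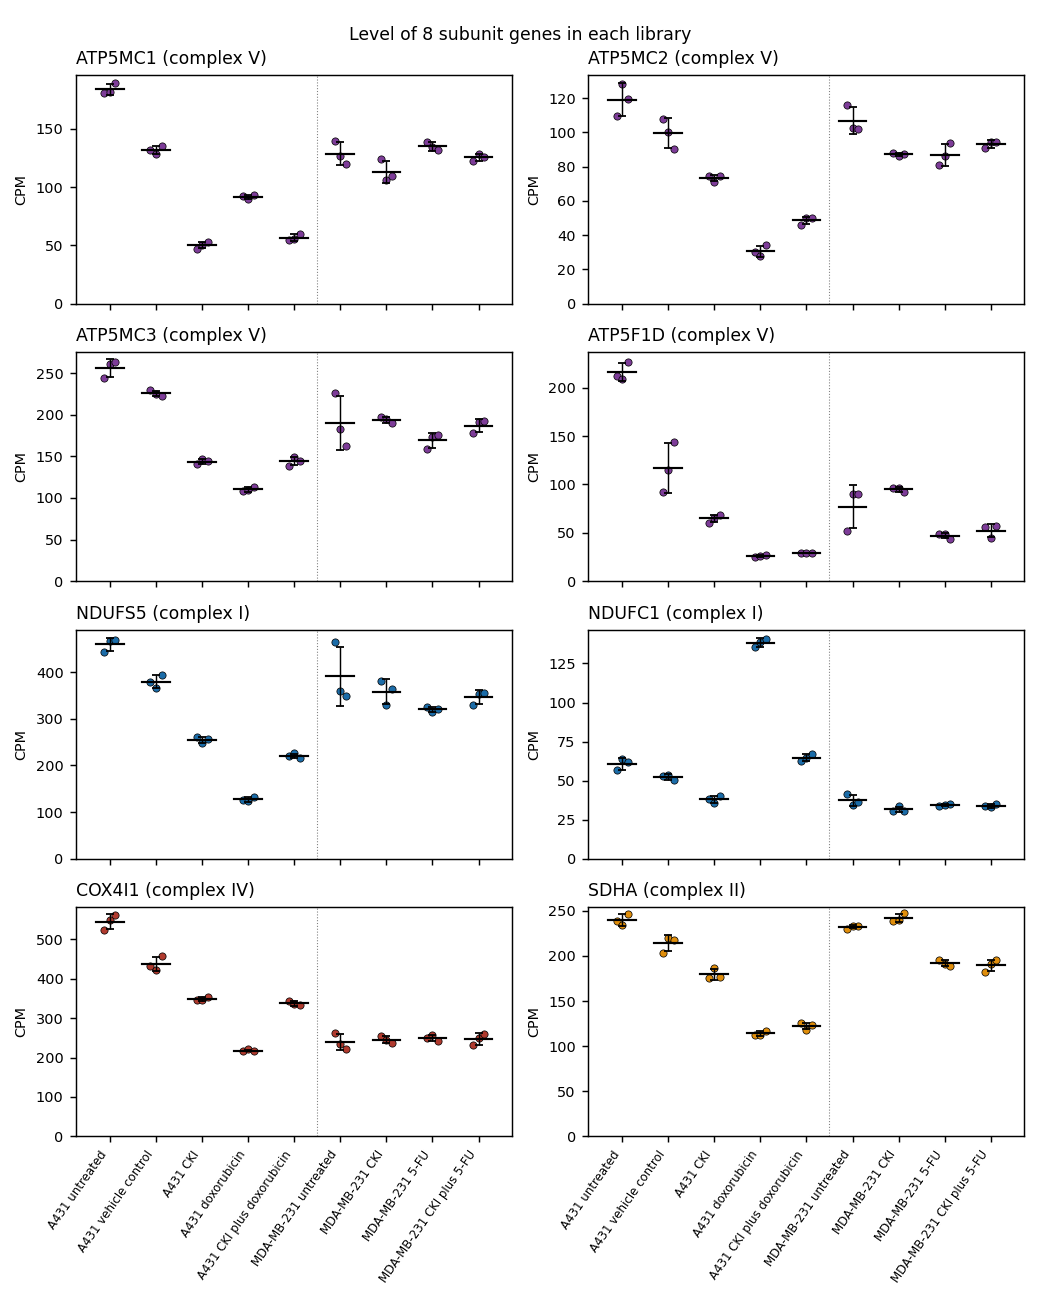
CPM (y axes, each starting at 0) of ATP5MC1, ATP5MC2, ATP5MC3, ATP5F1D, NDUFS5, NDUFC1, COX4I1 and SDHA in each library by group (x axis), with the group mean and 1 SD (n = 3). ATP5MC1 is lowest after CKI at 47.2 to 52.4 CPM, NDUFS5 is lowest after doxorubicin at 122.7 to 132 CPM, and NDUFC1 is highest after doxorubicin at 136 to 141 CPM.

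Promoters of members were read from RefSeq (GRCh38.p14) over 250 bases before to 50 bases after each gene start, with 67 of the 84 members matched. The core motif of NRF1, a transcription factor of many respiratory genes, was searched as GCGCATGC or its reverse complement GCATGCGC, and the core motif of ETS factors, which include GABPA, as CCGGAAG or CTTCCGG. Overlap between matches of the 2 motifs was not counted. The NRF1 core lay in 13 of the 67 promoters, 19.4%, and in 3.27% of all 27305 promoters of the table. The ETS core lay in 19 of the 67, 28.4%, and in 10.7% of all. Both lay in 6 of the 67, 8.96%, and in 0.685% of all. The 3 windows before the gene start are shown for members among the largest falls after CKI or doxorubicin whose upstream 250 bases hold a match, with the match in capitals. They are from chr11:47578912-47579017 (plus strand), chr19:35648251-35648322 (plus strand) and chr12:53676096-53676183 (minus strand).
NDUFS3, ETS core: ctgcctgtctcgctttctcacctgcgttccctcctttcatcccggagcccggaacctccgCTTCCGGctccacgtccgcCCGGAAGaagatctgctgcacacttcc
COX6B1, ETS core: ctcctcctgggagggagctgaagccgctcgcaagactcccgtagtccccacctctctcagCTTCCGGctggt
ATP5MC2, NRF1 core: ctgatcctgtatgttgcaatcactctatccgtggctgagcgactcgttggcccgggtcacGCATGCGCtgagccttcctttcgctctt
The 2 ETS matches of NDUFS3 began 102 and 83 bases before the gene start, that of COX6B1 began 12 bases before it, and the NRF1 match of ATP5MC2 began 40 bases before it. NDUFA13, which rose after doxorubicin (log2 fold change 1.70), also had an ETS match, which began 10 bases before its gene start. COX4I1, also among the largest falls, had an ETS match that began 2 bases after its gene start, outside the upstream bases shown. No match was recorded for ATP5MC1, ATP5F1D, NDUFS5, NDUFA9 or NDUFS4, also among the largest falls. In all, 17 members had no matched promoter, and whether any of these genes was among them is not given. A match is a description of these letters and was not tested as a binding site.

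Vehicle control was compared with untreated A431 to see what the members did without CKI. Of 78 members, 34 fell, 2 rose and 42 did not pass the test, against 19.3% lower and 23.2% higher over all 15881 genes. The median over members was -0.15, and no member passed a log2 change of 1, which 2.54% of all genes did. Of the 5 members with the largest falls, ATP5F1D read 92.3, 115 and 144 CPM in vehicle control, where the libraries spread widely but all lay below untreated (log2 fold change -0.87 ± 0.10 (SE), adjusted p = 3.88e-07). NDUFS8, NDUFS7, NDUFA11 and CYC1 had log2 fold changes of -0.73, -0.68, -0.59 and -0.51, with adjusted p of 2.27e-07, 0.000483, 0.000575 and 7.51e-05. COX7A2L rose (log2 fold change 0.15 ± 0.058 (SE), adjusted p = 0.0358), but its value turned to -0.073 once GC content and length were corrected for, and NDUFS1 rose as well (log2 fold change 0.18 ± 0.067 (SE), adjusted p = 0.0344). Across the members the change ran against transcript GC content (Spearman's rho -0.69 over 78 genes measured in the same libraries, a description), and over all genes rho was -0.58. With GC content and length corrected for, 32 fell and 1 rose. The contribution of GC content was not otherwise tested.

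Set against vehicle control in place of untreated cells, most members were again lower after CKI. Of 78, 72 fell, 1 rose and 5 did not pass the test, against 33% lower and 32% higher over all genes. The median was -0.56. Beyond a log2 change of 1, 4 members fell and 1 rose, against 19.5% of all genes. ATP5MC1 read 132, 128 and 135 CPM in vehicle control, above all CKI libraries (log2 fold change -1.50 ± 0.060 (SE), adjusted p = 7.05e-16). NDUFA9, NDUFS3 and the stator-stalk subunits ATP5PB and ATP5PO had log2 fold changes of -1.15, -1.12, -1.05 and -0.99, with adjusted p of 4.22e-09, 1.01e-13, 1.39e-11 and 1.17e-09. COX6B2 was the member that rose, from 14.1, 14.3 and 16.2 CPM (log2 fold change 2.499 ± 0.10 (SE), adjusted p = 1.56e-15). Since CKI versus untreated and CKI versus vehicle control share the CKI libraries, the second is not independent of the first.

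In MDA-MB-231 the same CKI concentration moved few members when all libraries were kept. Of 78 tested, 4 rose, 5 fell and 69 did not pass the test, against 17.4% higher and 18.8% lower over all 13999 genes. The median over members was -0.05, and 1 member passed a log2 change of 1, against 5.96% of all genes. The count rested on the first untreated library: without it 28 members rose and 6 fell. The share of all genes called without it is not given, so that count was not set against one. Scaling by library size alone gave 8 and 3, and offsets for GC content and length gave 12 and 11.

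The falls were small. NDUFA10, an accessory subunit of the complex I membrane arm, read 82.8, 76.1 and 79.3 CPM untreated and 63.0, 61.3 and 66.5 CPM after CKI (log2 fold change -0.33 ± 0.056 (SE), adjusted p = 0.000694). ATP5F1B read 802, 631 and 629 CPM and then 559, 548 and 559 CPM (log2 fold change -0.32 ± 0.083 (SE), adjusted p = 0.0104). ATP5MC2 read 116, 102 and 102 CPM and then 88.0, 86.1 and 87.6 CPM (log2 fold change -0.30 ± 0.071 (SE), adjusted p = 0.00598). The groups of these 3 genes did not overlap, and the 3 kept their calls without the first untreated library. NDUFC1 and SDHC had log2 fold changes of -0.24 and -0.24 (adjusted p = 0.0255 and 0.0496). Of those that rose, NDUFA3 read 43.9, 47.5 and 45.9 CPM and then 57.2, 56.2 and 52.9 CPM (log2 fold change 0.27 ± 0.081 (SE), adjusted p = 0.022). UQCR11, a small complex III subunit, had a log2 fold change of 0.22 (adjusted p = 0.0304), and NDUFA7 and NDUFV2, both read at low counts, had 1.22 and 0.56 (adjusted p = 0.0353 and 0.0343). Without the first untreated library SDHC in CKI versus untreated in MDA-MB-231 lost its call (log2 fold change -0.12, adjusted p = 0.0662), and the other genes named here kept theirs.

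The difference between the cell lines was tested itself, as the log2 change with CKI in A431 minus that in MDA-MB-231. Of 79 members, 53 passed the test, all with the lower value in A431, and none had the opposite sign among those called. Over all 14848 genes 47% passed in either direction. The median over members was -0.69. Without the first untreated MDA-MB-231 library 72 members passed, and with vehicle control in place of untreated A431 41 did, in both cases all lower in A431. With GC content and length corrected for, 49 were lower in A431 and 4 higher. By complex, 26 of 36 passed in complex I, 1 of 4 in complex II, 7 of 10 in complex III, 6 of 14 in complex IV and 13 of 15 in complex V. ATP5MC2 had a difference of -0.49 that turned to 0.075 once GC content and length were corrected for.

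With all libraries and untreated A431 as reference, the largest difference was that of ATP5F1D, at -2.12 ± 0.21 (SE), adjusted p = 4.16e-06. Vehicle control alone gave ATP5F1D a log2 fold change of -0.87 against untreated A431. Its rise with CKI in MDA-MB-231 (0.29) did not pass the test. Its rank against vehicle control or without the first untreated MDA-MB-231 library is not given. ATP5MC1 had the smallest adjusted p of the members, with a difference of -1.77 ± 0.12 (SE), adjusted p = 1.42e-07. In MDA-MB-231 its libraries read 139, 126 and 119.7 CPM untreated and 124, 106 and 109 CPM after CKI, with overlap, whereas the A431 groups, given above, did not overlap. NDUFB11, a membrane-arm subunit of complex I, differed by -1.11 ± 0.10 (SE), adjusted p = 1.1e-06. It read 109.9, 112 and 123.1 CPM and 53.4, 54.5 and 56.1 CPM in A431, and 95.7, 91.9 and 92.9 CPM and 94.7, 91.0 and 87.7 CPM in MDA-MB-231. NDUFV1 differed by -1.03 ± 0.092 (SE), adjusted p = 1.39e-06. Of further members, CYC1, COX6B1, ATP5MC3, UQCRC1 and COX8A differed by -1.31, -1.24, -0.94, -0.85 and -0.85, with adjusted p of 8.99e-06, 4.41e-06, 0.000161, 8.28e-06 and 0.000353. COX4I1, COX5A, UQCRFS1, SDHA, ATP5F1A, ATP5MC2 and ATP5F1B had differences between -0.75 and -0.41, the last with the highest adjusted p at 0.0225.

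**Figure D5:**
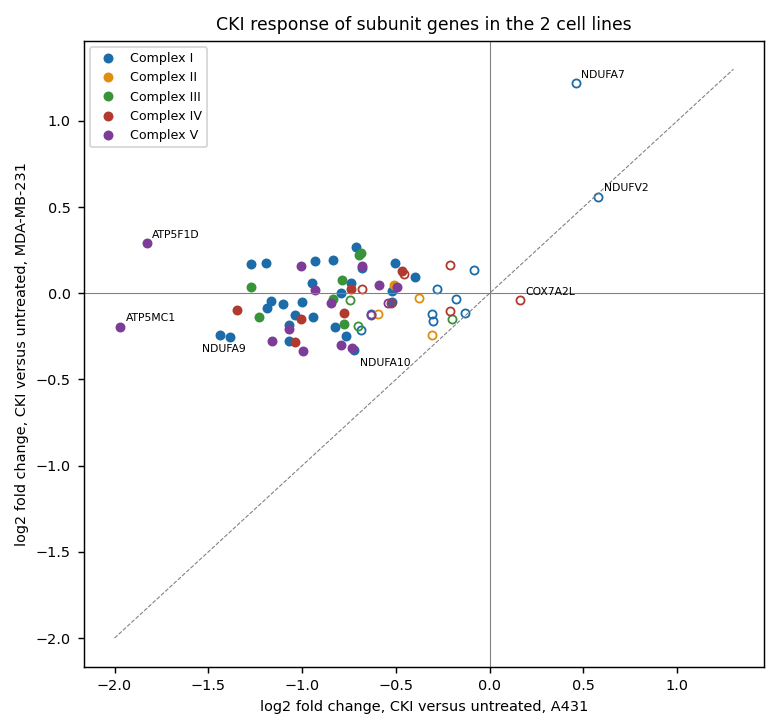
log2 fold change after CKI in A431 (x axis) against that in MDA-MB-231 (y axis) for the 77 members tested in both lines, coloured by complex. Filled points, 53 in number, passed the test of the difference between lines, and the dashed line marks equal change. Most points lie near 0 on the y axis and between -0.2 and -1.4 on the x axis, with ATP5MC1 and ATP5F1D farther left.

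Doxorubicin also lowered most members in A431, over a wider range. Of 78, 59 fell, 8 rose and 11 did not pass the test, against 39.9% lower and 40.7% higher over all 15881 genes. The median was -0.59 over the members and 0.017 over all genes. Beyond a log2 change of 1, 18 members fell and 3 rose, against 37.3% of all genes. Scaling by library size alone gave 45 falls and 19 rises, with 7 beyond a log2 change of 1, and the filter requiring 10 counts in every library left 11 beyond it. Complex V moved most: 13 of 15 tested fell, 8 of them by over 1 on the log2 scale, with a median of -1.03. In complex I 26 fell and 6 rose, in complex II 4 of 4 fell, in complex III 8 of 10, and in complex IV 8 of 13 fell and 2 rose.

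ATP5F1D showed the largest fall of any member in any comparison within a cell line, from 212, 209 and 227 CPM to 25.1, 25.8 and 26.7 CPM (log2 fold change -3.09 ± 0.11 (SE), adjusted p = 2.91e-17). ATP5MC2 read 30.3, 27.6 and 34.0 CPM after doxorubicin against 109 to 129 CPM untreated (log2 fold change -1.99 ± 0.081 (SE), adjusted p = 6.09e-16). ATP5MC3 and ATP5MC1 had log2 fold changes of -1.24 and -1.03 (adjusted p = 1.84e-15 and 1.37e-13). Among the c subunit genes the order therefore differed from that after CKI, where ATP5MC1 had the largest fall and ATP5MC2 the smallest, although this difference in order was not tested. ATP5F1A and ATP5F1B had log2 fold changes of -1.04 and -0.67 (adjusted p = 2.55e-14 and 6.67e-10).

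NDUFS5 (chr1:39491990-39500308, GRCh37, plus strand), an accessory subunit of complex I on the intermembrane side, read 443, 467 and 468 CPM untreated and 127, 122.7 and 132 CPM after doxorubicin (log2 fold change -1.88 ± 0.055 (SE), adjusted p = 1.65e-18). NDUFS4, whose loss is known to cause complex I deficiency, read 43.97, 46.6 and 50.8 CPM and then 20.4, 17.1 and 19.5 CPM (log2 fold change -1.34 ± 0.079 (SE), adjusted p = 4.26e-13). NDUFS1 and NDUFV1 had log2 fold changes of -0.89 and -0.59 (adjusted p = 5.12e-11 and 1.77e-09). COX4I1 read 216, 221 and 217 CPM, all below the untreated libraries at 524 CPM and above (log2 fold change -1.35 ± 0.051 (SE), adjusted p = 1.67e-16). SDHA read 239, 234 and 247 CPM and then 113, 112 and 117 CPM (log2 fold change -1.10 ± 0.054 (SE), adjusted p = 1.54e-14), and CYC1 had a log2 fold change of -0.96 (adjusted p = 8.25e-10).

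Of the 8 members that rose, NDUFC1 (chr4:140188034-140223705, GRCh37, minus strand), a small complex I subunit, had the most reads among those with large changes. It read 56.5, 64.0 and 61.8 CPM untreated and 136, 139 and 141 CPM after doxorubicin (log2 fold change 1.16 ± 0.061 (SE), adjusted p = 6.22e-14). Its exons share 31.5% of their bases with neighbouring genes. NDUFA2 read 48.1, 52.9 and 50.4 CPM and then 74.3, 76.2 and 80.2 CPM (log2 fold change 0.58 ± 0.080 (SE), adjusted p = 7.3e-07), and NDUFB1 read 58.1, 63.9 and 48.3 CPM and then 82.3, 78.1 and 78.7 CPM (log2 fold change 0.46 ± 0.10 (SE), adjusted p = 0.000155). NDUFA13 went from 24, 14 and 18 counts to 70, 81 and 69 (log2 fold change 1.70 ± 0.27 (SE), adjusted p = 5.95e-06), and NDUFA7 from 6, 3 and 7 counts to 24, 14 and 31 (log2 fold change 1.81 ± 0.48 (SE), adjusted p = 0.00165). COX7B rose as well (log2 fold change 0.37 ± 0.084 (SE), adjusted p = 0.000367), while COX6B2, the member that rose most after CKI, fell after doxorubicin (log2 fold change -0.66 ± 0.12 (SE), adjusted p = 3.15e-05). COX6A1, COX8A and SDHB had log2 fold changes of -0.29, -0.30 and -0.23 (adjusted p = 0.00232, 0.000193 and 0.000599), and all 3 turned positive with library size alone, to 0.053, 0.046 and 0.11.

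Adding CKI to doxorubicin moved members both ways. Compared to doxorubicin alone, 24 of 78 rose, 22 fell and 32 did not pass the test, against 33.8% higher and 29.8% lower over all 15881 genes. The median over members was -0.02, and 1 member rose and 1 fell by over 1 on the log2 scale, against 14.9% of all genes. With GC content and length corrected for, 38 rose and 19 fell. COX6B2 rose from 13.2, 9.62 and 10.00 CPM to 28.4, 29.8 and 29.8 CPM (log2 fold change 1.44 ± 0.11 (SE), adjusted p = 1.54e-10). NDUFS5, low after doxorubicin, read 219, 226 and 216 CPM in the combination (log2 fold change 0.81 ± 0.054 (SE), adjusted p = 1.07e-11). NDUFS4 and ATP5MC2 rose likewise (log2 fold change 0.78 ± 0.080 (SE), adjusted p = 1.51e-08 and log2 fold change 0.69 ± 0.083 (SE), adjusted p = 1.76e-07). In the other direction NDUFC1 read 62.7, 64.4 and 66.9 CPM, close to its untreated level (log2 fold change -1.08 ± 0.061 (SE), adjusted p = 6.33e-13). NDUFB7, NDUFS7, NDUFA13 and ATP5MC1 fell too, with log2 fold changes of -0.73, -0.67, -0.68 and -0.67 and adjusted p of 1.22e-09, 0.000488, 0.0125 and 1.16e-09. NDUFV2 had a log2 fold change of 0.90 (adjusted p = 0.0201) at about 1 CPM.

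The interaction, the log2 change with CKI on top of doxorubicin minus that with CKI alone, was positive for 66 of 78 members and negative for 3 among those that passed the test. Over all genes 57.4% passed in either direction. The median over members was 0.67. For NDUFS5 the interaction was 1.75 ± 0.076 (SE), adjusted p = 2.61e-14: CKI alone gave -0.94 and CKI on doxorubicin gave 0.81. For COX4I1 it was 1.39 ± 0.072 (SE), adjusted p = 4.4e-13, with libraries of 344, 335 and 332 CPM in the combination against 217.8 CPM on average after doxorubicin. For ATP5MC3 it was 1.33 ± 0.076 (SE), adjusted p = 2.04e-12. These genes had the smallest adjusted p, while the largest value was that of ATP5F1D (2.02 ± 0.15 (SE), adjusted p = 9.05e-11). That value rests on untreated A431, against which vehicle control alone gave ATP5F1D a log2 fold change of -0.87. The 3 negative values were those of COX6B2 (-0.88 ± 0.15 (SE), adjusted p = 3.44e-05), NDUFC1 (-0.31 ± 0.088 (SE), adjusted p = 0.00467) and COX7A2L (-0.26 ± 0.082 (SE), adjusted p = 0.0088). With vehicle control in place of untreated cells, 61 interactions were positive and 3 negative. The CKI and doxorubicin comparisons share the untreated libraries, which enter this interaction as well.

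In MDA-MB-231, 5-FU lowered 20 of 78 members and raised 9, and 49 did not pass the test. Over all 13999 genes 28.5% were called lower and 28.6% higher. The median over members was -0.12, and 2 members passed a log2 change of 1, against 13.3% of all genes. Without the first untreated library 20 fell and 28 rose, and library size alone gave 7 falls and 19 rises. Fitted on the compared groups alone, 16 members were called, and with GC content and length corrected for, 52 were.

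Among the members whose groups did not overlap, COX7B2 read 21.9, 13.7 and 13.97 CPM untreated and 9.29, 9.10 and 10.1 CPM after 5-FU (log2 fold change -0.80 ± 0.16 (SE), adjusted p = 0.00102). NDUFA10 read 49.7, 50.2 and 49.3 CPM after 5-FU against 76.1 CPM or more untreated (log2 fold change -0.68 ± 0.056 (SE), adjusted p = 1.05e-06). ATP5F1D read 52.0, 89.8 and 89.6 CPM and then 48.8, 48.4 and 43.8 CPM, and its lowest untreated library was the one that stood apart (log2 fold change -0.72 ± 0.17 (SE), adjusted p = 0.0035). ATP5ME, with 61.3% of its exon bases shared with another gene, and NDUFA1 had log2 fold changes of -0.63 and -0.56 (adjusted p = 0.00153 and 0.0174). All 5 kept their calls without the first untreated library.

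The largest rise after 5-FU was in NDUFV2, a core complex I subunit with few reads here, which read 1.57, 1.34 and 1.77 CPM untreated and 5.61, 6.48 and 6.10 CPM after 5-FU (log2 fold change 1.96 ± 0.17 (SE), adjusted p = 1.27e-06). NDUFA13 read 0.731, 1.29 and 1.28 CPM and then 2.58, 2.33 and 2.15 CPM (log2 fold change 1.08 ± 0.26 (SE), adjusted p = 0.00394). NDUFV2 and NDUFA13 were the 2 members beyond a log2 change of 1. They share 28.4% and 21.0% of their exon bases with other genes, so reads there cannot be assigned to one gene. NDUFB9 read 33.7, 31.7 and 31.9 CPM and then 45.2, 43.5 and 43.9 CPM (log2 fold change 0.45 ± 0.062 (SE), adjusted p = 6.65e-05). NDUFB11 and NDUFA6 rose by less, with log2 fold changes of 0.31 and 0.30 (adjusted p = 0.00051 and 0.00987). All of these are complex I genes, but only 8 of 36 members of that complex rose and 7 fell. Over all genes 28.6% were called higher and 28.5% lower. The count by complex without the first untreated library is not given.

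With CKI added to 5-FU, 15 members rose, 9 fell and 54 did not pass the test, against 25.9% higher and 24.5% lower over all genes. None passed a log2 change of 1, against 9.77% of all genes, and the median over members was 0.13. The count was 52, with 40 rises and 12 falls, when the 2 groups were fitted alone. Complex IV had a summed level 122% of that after 5-FU, the highest ratio of the 5 complexes. COX7B read 154, 148 and 149 CPM after 5-FU and 226, 274.5 and 257 CPM with both (log2 fold change 0.75 ± 0.24 (SE), adjusted p = 0.0211). COX6C, also a complex IV subunit, read 189, 178 and 204 CPM and then 288, 319 and 299.5 CPM (log2 fold change 0.67 ± 0.20 (SE), adjusted p = 0.0166). COX7B2 read 13.8, 15.8 and 16.1 CPM with both (log2 fold change 0.69 ± 0.16 (SE), adjusted p = 0.0034). NDUFA2 and UQCRHL had log2 fold changes of 0.52 and 0.78 (adjusted p = 0.00956 and 0.0411). UQCRHL was read at low counts, 29, 37 and 41 after 5-FU and 46, 72 and 69 with both.

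NDUFB11 fell on adding CKI to 5-FU, from 114.5, 116 and 118 CPM to 87.2, 79.8 and 86.1 CPM (log2 fold change -0.46 ± 0.057 (SE), adjusted p = 3.89e-05). ATP5F1B read 758, 746 and 777 CPM and then 549, 585 and 570.5 CPM (log2 fold change -0.42 ± 0.083 (SE), adjusted p = 0.00128). NDUFA13, NDUFV2 and NDUFC2 had log2 fold changes of -0.89, -0.49 and -0.43 (adjusted p = 0.0122, 0.0131 and 0.0313). The interaction of CKI with 5-FU passed the test for 9 of 78 members, 6 positive and 3 negative, against 31.4% of all genes in either direction. Without the first untreated library 25 passed, 13 positive and 12 negative, and library size alone gave 3 positive and 4 negative. It was 0.43 ± 0.079 (SE), adjusted p = 0.00158 for NDUFA10, 0.40 ± 0.10 (SE), adjusted p = 0.00968 for ATP5MC2 and 0.75 ± 0.22 (SE), adjusted p = 0.0223 for COX7B2. It was -0.41 ± 0.080 (SE), adjusted p = 0.00234 for NDUFB11, -1.05 ± 0.24 (SE), adjusted p = 0.00546 for NDUFV2 and -0.56 ± 0.18 (SE), adjusted p = 0.0309 for NDUFS8.

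Genes that build or accompany the respiratory chain were counted beside the members. The shares of all genes called lower and higher were 33.7% and 33.3% after CKI in A431 and 39.9% and 40.7% after doxorubicin. Of 50 assembly factors, 36 fell and 3 rose after CKI in A431 (median log2 fold change -0.55), and 26 fell and 10 rose after doxorubicin (-0.18). BCS1L, which installs the Rieske protein in complex III, read 53.9, 54.4 and 46.9 CPM untreated and 17.5, 18.3 and 16.9 CPM after CKI (log2 fold change -1.65 ± 0.079 (SE), adjusted p = 1.48e-14). NDUFAF8, a complex I assembly factor, read 82.8, 89.1 and 88.9 CPM untreated, 29.4, 30.0 and 31.5 CPM after CKI and 22.6, 22.4 and 22.6 CPM after doxorubicin (log2 fold change -1.61 ± 0.080 (SE), adjusted p = 2.88e-14 and log2 fold change -1.97 ± 0.082 (SE), adjusted p = 7.78e-16). COX18, which inserts a mitochondrially encoded complex IV subunit into the membrane, fell after doxorubicin (log2 fold change -2.19 ± 0.12 (SE), adjusted p = 1.88e-13).

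Of 17 regulators of mitochondrial biogenesis, 10 fell and 4 rose after CKI in A431, and 10 fell and 2 rose after doxorubicin. PPARGC1A, a coactivator of this programme, read 46.5, 41.8 and 40.7 CPM untreated, 109.9, 101 and 106 CPM after CKI and 10.4, 10.9 and 10.4 CPM after doxorubicin. It rose after CKI (log2 fold change 1.204 ± 0.075 (SE), adjusted p = 1.82e-12) and fell after doxorubicin (log2 fold change -2.05 ± 0.089 (SE), adjusted p = 1.92e-15), although most members fell after both. PPARGC1A also rose with vehicle control alone (log2 fold change 0.57 ± 0.077 (SE), adjusted p = 5.63e-06). Against vehicle control its rise after CKI was smaller (log2 fold change 0.63 ± 0.073 (SE), adjusted p = 7.69e-08). TFAM, which packages mitochondrial DNA, fell after CKI (log2 fold change -0.73 ± 0.068 (SE), adjusted p = 1.42e-09), as did LRPPRC, which stabilises mitochondrial messenger RNA (log2 fold change -1.09 ± 0.064 (SE), adjusted p = 5.05e-13). Of 8 partners outside the rule, 7 fell and 1 rose after CKI. CYCS, which encodes cytochrome c, read 322, 343 and 349 CPM untreated, 233, 226 and 233 CPM after CKI and 415, 401 and 422 CPM after doxorubicin (log2 fold change -0.64 ± 0.054 (SE), adjusted p = 3.11e-10 and log2 fold change 0.26 ± 0.054 (SE), adjusted p = 0.00013). ATP5IF1, the inhibitor of ATP synthase, also fell after CKI (log2 fold change -0.92 ± 0.056 (SE), adjusted p = 9.96e-13) and rose after doxorubicin (log2 fold change 0.46 ± 0.055 (SE), adjusted p = 7.26e-08).

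Other large gene groups moved in A431 as well. After CKI, 12 of 13 genes of the tricarboxylic acid cycle, 70 of 74 mitochondrial ribosomal proteins tested and 82 of 85 cytosolic ribosomal proteins tested fell, with medians of -0.36, -0.94 and -0.86. After doxorubicin the numbers were 8, 53 and 76, with medians of -0.53, -0.44 and -0.98. In MDA-MB-231 after CKI, 57 of 84 cytosolic ribosomal proteins fell and none rose (median -0.42), against 18.8% of all genes lower. Of 74 mitochondrial ribosomal proteins 15 fell and 5 rose (median -0.12), a share of falls near that of all genes. Without the first untreated library 67 cytosolic ones fell and 1 rose, and 17 mitochondrial ones fell and 18 rose. No test set these lists against each other.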

How the data were processed

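RNA-seq libraries from A431 and MDA-MB-231 cells were prepared as unstranded paired-end libraries per the labels. The submitters' processing notes name Trim Galore 0.3.7, STAR 2.5.3a and edgeR, with genome build hg19 (the counting tool and annotation are not given in the sources used here). The authors deposited raw counts per gene for 24566 rows in 27 libraries. Groups followed the sample labels, with 3 libraries each.

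Counts were tested with edgeR 4.0.16 (quasi-likelihood test, R 4.3.3) after TMM scaling and edgeR's filter on low counts, in 1 fit per cell line plus 1 fit over untreated and CKI groups of both lines. P-values were adjusted by Benjamini-Hochberg over all genes tested, and an adjusted p under 0.05 was a call. Gene length, GC content and exon sharing came from a GRCh37 annotation. In 17 members 20% or more of the exon bases were shared with other genes, most in ATP5ME (61.3%) and NDUFS7 (51.4%). Without strand, reads there cannot be told apart between the genes. Members and lists were chosen with earlier results of these data known. Named genes were preset members of each complex, paralogues, and up to 5 non-overlapping members a direction with the largest change (for interactions, up to 3 with the smallest adjusted p). Alternatives were DESeq2 1.42.0, other scalings and filters, GC and length offsets, a replicate block, compared groups alone, vehicle control as reference, and each library left out. Total counts per library, 17757206 to 22809339, set the precision, and intervals and floors cover counting error only.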

Additional observations from a re-analysis of the deposited data

Results flagged for a closer look

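In 3 tests of a difference between effects, some members differed in their change with CKI by cell line or by accompanying drug. Members are named here by smallest adjusted p. By size ATP5F1D was largest between the cell lines, at -2.12, and between CKI on top of doxorubicin and CKI alone, at 2.02. Both values rest on untreated A431, against which vehicle control alone gave ATP5F1D a log2 fold change of -0.87. Between the cell lines 53 of 79 members passed the test, against 47% of all genes, with ATP5MC1 at -1.77, NDUFB11 at -1.11 and NDUFV1 at -1.03 as log2 change in A431 minus that in MDA-MB-231.

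Between CKI on top of doxorubicin and CKI alone in A431, 69 of 78 members passed, against 57.4% of all genes, with NDUFS5 at 1.75, COX4I1 at 1.39, ATP5MC3 at 1.33, COX6B2 at -0.88, NDUFC1 at -0.31 and COX7A2L at -0.26 on the log2 scale. Between CKI on top of 5-FU and CKI alone in MDA-MB-231, 9 of 78 passed, a smaller share than the 31.4% of all genes, and 4 to 25 passed with 1 library left out (25 without untreated MDA-MB-231 replicate 1). The values were 0.43 for NDUFA10, 0.40 for ATP5MC2, 0.75 for COX7B2, -0.41 for NDUFB11, -1.05 for NDUFV2 and -0.56 for NDUFS8. NDUFV2 had 8 to 136 counts per library.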

How the results depend on the processing

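Of 361 recomputed counts of called members, 314 stayed within 1.5 times the reported count, and of 3039 recomputed values of named members, 2883 kept their direction and side of the threshold, 139 lost the call and 17 turned direction. Of 90 summed levels per complex and group recomputed under other scalings, 55 moved by at least the SD of the group. The causes were not tested. With GC and length offsets, alone and with the replicate block, CKI in MDA-MB-231 called 23 and 22 members, 5-FU 52 and 51, and the CKI by 5-FU interaction 22 and 18, and 8 members passed a log2 change of 1 for CKI in A431 under both. The offsets alone left 1 beyond it for CKI plus doxorubicin versus doxorubicin. With the compared groups alone CKI in MDA-MB-231 called 3, 5-FU 16, and CKI plus 5-FU versus 5-FU 52. With no filter on low counts CKI in MDA-MB-231 called 5. Its member beyond a log2 change of 1 was lost (0) with DESeq2, no filter, 10 counts in every library, the replicate block and the groups alone. For CKI in A431, 13 passed a log2 change of 1 with library size alone and 5 against vehicle control, and for doxorubicin 7 with library size alone and 11 with 10 counts in every library.

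Replicate numbers were shared between groups, but same-numbered libraries did not all deviate together. Whether they share a culture or a batch is not known. The replicate block called 5 members for CKI in MDA-MB-231 and moved no other count of called members by over 1.5 times.

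Leaving out 1 library gave 4 to 34 called members for CKI in MDA-MB-231, 20 to 48 for 5-FU, 4 to 25 for the CKI by 5-FU interaction and 12 to 21 for CKI plus 5-FU versus 5-FU, the upper ends of the first 3 without untreated MDA-MB-231 replicate 1. Beyond a log2 change of 1 it gave 0 to 2 for CKI in MDA-MB-231, 1 to 2 for 5-FU, 0 to 1 for CKI plus 5-FU versus 5-FU, 2 to 4 for CKI plus doxorubicin versus doxorubicin (4 without doxorubicin replicate 2), 5 to 10 for CKI versus vehicle control (10 without vehicle control replicate 2) and 0 to 1 for vehicle control.

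With library size alone, direction turned for SDHB in doxorubicin versus untreated in A431 (0.11), COX6A1 (0.053), COX8A (0.046) and HIGD2A in doxorubicin versus untreated in A431 (0.045). With GC and length offsets, alone and with the replicate block, it turned for COX7A2 in CKI versus untreated in A431 (0.11 and 0.11), GABPA in CKI versus untreated in A431 (-0.052 and -0.052), COX7A2L in vehicle control versus untreated in A431 (-0.073 and -0.073) and ATP5MC2 in cell line by CKI interaction (0.075 and 0.079). Against vehicle control it turned for TTC19 in CKI versus untreated in A431 (-0.050), GABPA (-0.047), HIGD1A in CKI versus untreated in A431 (-0.060), HIGD1A in doxorubicin versus untreated in A431 (-0.070) and HIGD2A (0.30).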
